A study of Mus musculus with 15 samples.

Results

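The comparison described here sets 2 wild-type lines of mouse embryonic stem cells against each other, Ezh2-WT and E14-WT, each with 3 biological replicates per the series' design text. Its members are the genes with a log2 fold change for this pair in the authors' deposited table, leaving out 9 Y-linked genes. They number 18595 of 38355 listed genes, and 18256 of them were matched to a symbol and a position in GENCODE mouse release 21 (GRCm38). Every fold change and call below comes from the authors' deposited table, which gives no value per sample, no error and no p-value. Depth per sample and the spread between replicates are therefore unknown here, no difference could be tested anew, and a gene is called higher or lower only where the authors' table calls it. What a gene had to meet for that call is not stated.

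Ezh2-WT cells carry floxed Ezh2 alleles (Ezh2[fl/fl]), and their genotype is labelled wild type. E14-WT cells are the line E14TG2a, also wild type. Both were grown on gelatin in 2i medium, with the MEK inhibitor PD0325901 at 1 µM, a GSK3 inhibitor at 3 µM and leukaemia inhibitory factor (LIF). RNA under 200 nt was removed and ribosomal RNA was depleted. The other 3 groups of the series, used below only for values side by side, are Ezh2-KO (Ezh2[-/-]), Suz12-KO (Suz12[-/-]) and Ring1A+B-DKO (Ring1A[-/-];Ring1B[-/-]), grown alike with 3 replicates each. Each genotype is represented by 1 line, so that derivation, genetic background and the floxed alleles cannot be told apart as sources of a difference between the lines.

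As background, 2i medium blocks ERK signalling and stabilises beta-catenin, and with LIF it keeps mouse embryonic stem cells in the naive state that resembles the early epiblast. Wild-type lines kept in this state can differ from each other in genetic background, epigenetic state and history of culture. A knockout is usually compared with the line it was made from, and a second wild-type line shows how far lines differ without a knockout.

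The direction of the comparison was read from the table itself. As deposited, all 1170 genes with reads in Ezh2-WT and none in E14-WT had a negative value in the authors' deposited table. The 1424 genes with the opposite pattern were all positive. The column therefore holds E14-WT over Ezh2-WT, and its sign was turned. By the same reading of missing values, the Suz12-KO and Ring1A+B-DKO columns were also turned, and the Ezh2-KO column was kept. Values given here from the turned columns have the opposite sign to those deposited. Unless another comparison is named, values below are log2 fold changes of Ezh2-WT over E14-WT, so that a positive value means higher in Ezh2-WT.

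The labels were then checked against the genes that define them. All 6 embryonic stem cell markers (Pou5f1, Sox2, Nanog, Esrrb, Zfp42 and Klf4) had reads in both lines, and their values ran from -1.15 to 0.75. Ezh2 (chromosome 6, 47530139 to 47595341) stood at -0.03 in the authors' deposited table and was not called. E14TG2a is known for having been selected for loss of HPRT activity, yet Hprt (chromosome X, 52988137 to 53021659), the purine salvage enzyme gene, stood at -0.13 with no call. The start of this gene is known to be deleted in E14TG2a, so it had been planned as a second look at the direction. A value of -0.13 bears out neither the direction nor the E14TG2a label. Over purine salvage and synthesis genes 0 of 16 were called and the median was -0.12. Of 6 feeder fibroblast markers, Col1a2, Col3a1 and Postn had no value for this pair of lines, which is read here as no reads in either, and the other 3 stood between -0.27 and 0.24 with no call. For the knockout lines, Ezh2 stood at -0.14 in Ezh2-KO over Ezh2-WT and Suz12 at -1.04 in Suz12-KO over E14-WT, both uncalled. In Ring1A+B-DKO over E14-WT, Ring1 was called at -2.03 and Rnf2, the gene of Ring1B, stood at 0.17 uncalled. A value per gene also covers exons that a deletion leaves, so the values of Ezh2 and Rnf2 do not check these labels. The table holds no levels, so how strongly a marker was expressed cannot be given.

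The authors' deposited table called 110 genes, 0.592% of those with a value. Of these, 67 were higher in Ezh2-WT (0.36%) and 43 were lower (0.231%). The smallest called difference was 1.01 on the log2 scale, a 2.01-fold difference. The medians of the called genes were 1.53 for the higher and -1.62 for the lower ones, and 12 and 7 of them were at least 2 in size. Most genes lay close to 0, with a median of -0.02, quartiles of -0.21 and 0.19 and a 5th and 95th percentile of -0.62 and 0.65. Size alone did not decide the call, since 172 uncalled genes stood at 1 or more and 143 at -1 or less, the most distant at 1.77 and -1.91. With uncalled genes counted, 1.29% of genes stood at 1 or more and 1% at -1 or less. The 2594 genes read in 1 of the lines only stood near 0, with a median size of 0.11, and 1 of them was called, the processed pseudogene Gm13841 at 2.88, which was named after its value was seen.

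**Figure D1:**
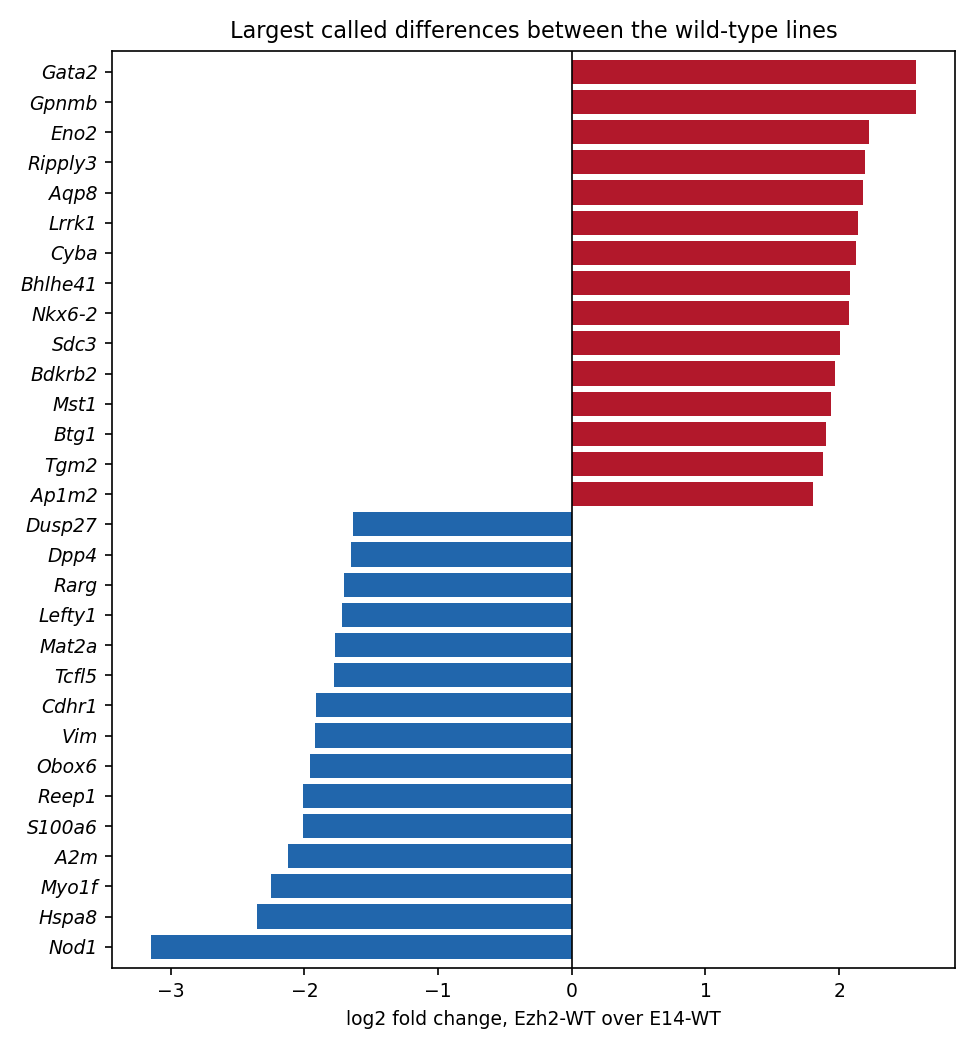
Log2 fold changes (horizontal axis, Ezh2-WT over E14-WT) of the 15 largest called increases and the 15 largest called decreases, 1 bar per gene, red above 0 and blue below. The bars run from 2.58 for Gata2 down to -3.15 for Nod1, and they are the authors' values, without error bars because the table gives none.

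The 15 largest increases are described first, with gene models, small RNA genes and pseudogenes such as Gm13841 set aside. In the authors' deposited table Gata2 (chromosome 6, 88193891 to 88207032), a haematopoietic GATA factor, and Gpnmb (chromosome 6, 49036546 to 49070929), a transmembrane glycoprotein of lysosomes and melanosomes, each stood at 2.58, a 5.97-fold and a 5.96-fold difference. Eno2, the neuronal isoform of the glycolytic enzyme enolase, stood at 2.23 and Ripply3, a repressor that works with T-box factors, at 2.19. The water channel gene Aqp8 followed at 2.18, and a second one, Aqp3, was the smallest call at 1.01.

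Further transcription factors were among them. Bhlhe41 and Bhlhe40, related basic helix-loop-helix repressors of the circadian clock, stood at 2.08 and 1.44 in the authors' deposited table. Nkx6-2, a homeobox gene of the neural tube, stood at 2.07. The zinc finger gene Klf15, the co-repressor gene Tle3 and the AP-1 family gene Jdp2 had values of 1.63, 1.65 and 1.45, and were named here, like Aqp3, after their values were seen.

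The remaining increases among the 15 had varied roles. Sdc3, a heparan sulphate proteoglycan, stood at 2.01 in the authors' deposited table and Bdkrb2, the bradykinin receptor B2 gene, at 1.97. Cyba, the p22-phox subunit of NADPH oxidase, had 2.13, Lrrk1, a leucine-rich repeat kinase, 2.14, and Mst1, encoding macrophage stimulating protein, 1.94. Btg1, an antiproliferative gene, had 1.90, Tgm2, tissue transglutaminase, 1.88, and Ap1m2, an epithelial clathrin adaptor subunit, 1.80. Sparc, a matrix glycoprotein and the only called member of the primitive and visceral endoderm list (17 genes with a value, median 0.09), stood at 1.07. Of these 15 largest increases, 7 overlap an antisense gene (Lrrk1, Cyba, Bhlhe41, Nkx6-2, Sdc3, Mst1 and Tgm2), and of the 15 largest decreases 3 do (Mat2a, Tcfl5 and Dpp4), beside 41.6% of all genes. Whether counting used strand is not stated, so reads of those pairs may be mixed.

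The genes called lower in Ezh2-WT were led by Nod1 (chromosome 6, 54923949 to 54972612), an intracellular sensor of bacterial peptidoglycan, at -3.15, the largest value of all calls in the authors' deposited table. Hspa8, the constitutive HSC70 chaperone gene, stood at -2.35, and it overlaps other annotated genes. Myo1f, an unconventional myosin of immune cells, had -2.25, the protease inhibitor gene A2m -2.12, the calcium-binding protein gene S100a6 -2.01 and Reep1, which shapes the endoplasmic reticulum, -2.01. The oocyte-type homeobox gene Obox6 stood at -1.96, Vim, the intermediate filament vimentin, at -1.92 and Cdhr1, a photoreceptor cadherin gene, at -1.91.

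The other 6 of the 15 largest decreases had varied roles as well. Tcfl5, a basic helix-loop-helix factor of the germline, and Mat2a, which makes S-adenosylmethionine, each stood at -1.78 in the authors' deposited table. Lefty1 (chromosome 1, 180935022 to 180938400), a secreted inhibitor of NODAL, had -1.72, and Rarg, the gamma receptor of retinoic acid, -1.70. The dipeptidyl peptidase gene Dpp4 had -1.65 and the atypical phosphatase gene Dusp27 -1.64. Mir17hg, the host transcript of the miR-17-92 cluster, stood at -1.41. Mir5099, called at -1.03, is a small RNA gene, and small RNA had been removed from these libraries. Near-identical sequence in another annotated gene, at 95% identity or more, was found for 18 of 109 called genes searched. Overlapping genes were not left out, so some matches are not copies elsewhere, such as Mrnip for Sqstm1 and Mir20a for Mir17hg. Among the genes named here, those with a match are Btg1, Sdc3, Tgm2, Sqstm1, Obox6, Mat2a, Gabarapl2, Nanog, Mir17hg, Slc16a9, Gm16344 and Gm13841, whose reads the counting could have divided. Uncalled genes named below that have such a match include Dppa2, Dppa3, Dnaja1, Ddit3, Bnip3, Ldha and Meg3. The match of Ddit3 is another entry under the same symbol.

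Of 17 naive pluripotency genes, 1 was called, the homeobox gene Nanog (chromosome 6, 122707489 to 122714633), lower in Ezh2-WT at -1.15 in the authors' deposited table. Since 0.592% of all genes were called, 0 or 1 calls in a list this short say little about its members. The same holds for the short lists below. Without a call, Dppa3 stood at 1.25, Esrrb at 0.75 and Tet2 at -0.68, and the list's median was 0.08 while its mean was -0.02. Among 12 general pluripotency genes 0 were called, 10 lay below 0 and the median was -0.38, beside -0.02 for all genes. Dppa2 and Sall4 had the lowest values, -1.07 and -0.93, and Pou5f1 the highest, 0.52.

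Genes that open the way out of the naive state lay lower on the whole. In the list of formative and primed epiblast genes, 14 with a value, Lefty1 was the 1 call and the median was -0.34. Members went both ways: without a call, Dnmt3a and Lefty2 stood at -1.27 and -1.13 in the authors' deposited table, and Otx2, a transcription factor of that state, at 1.08. The list of NODAL and SMAD2/3 targets had 12 of 13 members below 0 and a median of -0.34. It also holds Id1, Id2, Id3 and Id4, better known as targets of BMP signalling, so it does not stand for NODAL alone. Of these, Id1 stood at -0.09, Id2 at -0.06 and Id4 at -0.13. The ligand gene Nodal stood at -0.66 and Id3, an inhibitor of basic helix-loop-helix factors, at -1.12, neither called. Lefty1, Lefty2 and Nodal stand in both lists, and Tdgf1 in this one and that of general pluripotency.

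Among WNT and beta-catenin targets, 10 of 13 lay below 0, with a median of -0.45. The D-type cyclin gene Ccnd1 was called at -1.27 in the authors' deposited table. Cdx1 at -1.29 and the feedback gene Axin2 at -1.04 were not called, and Rnf43, a feedback ubiquitin ligase, stood at 0.99. The MEK-ERK feedback and target genes had 0 calls among 14 members and a median of -0.21, with a mean of -0.04. Of the LIF-STAT3 genes, a list drawn up after the called genes were seen, Socs3, the feedback inhibitor, was higher at 1.31 and the kinase gene Sgk1 lower at -1.52. Over its 19 members the median was 0.04, and Gbx2 stood at -1.44 without a call.

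Genes of DNA methylation included 1 call among 13. Dnmt3l (chromosome 10, 78041947 to 78063622), the cofactor of the de novo methyltransferases, was lower in Ezh2-WT at -1.56 in the authors' deposited table. The methyltransferase genes Dnmt3a and Dnmt3b stood at -1.27 and -0.99 without a call, and the maintenance gene Dnmt1 at -0.03. The list's median was -0.13 and its mean -0.38. Of the 30 Polycomb subunit genes 0 were called, with a median of -0.03, and of the 21 Hox genes 0, with a median of -0.06. With 0.592% of all genes called, 0 calls in such lists do not set them apart.

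Genes of the lysosome, the acidic organelle that degrades proteins, lipids and glycans, lay mostly above 0. The list of 40 was drawn up after the called genes were seen, so that its calls and its values are a description only. The authors' deposited table called 4 higher (10%, beside 0.592% of all genes called either way), among them Gpnmb, Ctsb and Sqstm1, and 0 lower. Of the 40, 37 lay above 0, and the median was 0.62. Over all genes 48.2% lay above 0. Values of 0.5 or more were seen in 23 of the 40 (57.5%) and in 8.34% of all genes.

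The lysosomal genes that stood highest covered several roles. Ctsb, the protease cathepsin B, stood at 1.03 in the authors' deposited table and Sqstm1, the autophagy receptor p62, at 1.02. Without a call, the glycosidase genes Hexa, Neu1 and Gaa stood at 1.17, 1.05 and 1.04. The membrane proteins Cd63, Mcoln1 and Lamp1 had 1.01, 0.97 and 0.89, and the protease genes Ctsa and Ctsd 0.98 and 0.84. Subunits of the proton pump V-ATPase ran lower, with 0.10 for Atp6v1a, 0.11 for Atp6v1h, 0.36 for Atp6v0a1 and 0.62 for Atp6v0d1. The 3 members below 0 were Laptm4a at -0.14, Manba at -0.68 and Ctsf at -1.10. Uncalled members other than Hexa, Neu1 and Ctsf were named after their values were seen.

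Many lysosomal genes carry near their start sites the letters CACGTG, the core of a motif to which factors of the MiT/TFE family are known to bind. The 250 bases before the RefSeq start of 3 genes are shown because these are the highest in the list among those with the letters. The sequences are from RefSeq, GRCm38.p6, 5′ to 3′ on the strand of the gene, and capitals mark each CACGTG, which reads the same on both strands.
Gaa, chr11:119267713-119267962, plus strand: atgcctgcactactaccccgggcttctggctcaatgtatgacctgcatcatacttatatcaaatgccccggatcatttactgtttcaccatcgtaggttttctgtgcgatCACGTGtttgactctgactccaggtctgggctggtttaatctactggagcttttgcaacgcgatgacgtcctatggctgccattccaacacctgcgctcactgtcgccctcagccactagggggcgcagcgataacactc
Ctsa, chr2:164833523-164833772, plus strand: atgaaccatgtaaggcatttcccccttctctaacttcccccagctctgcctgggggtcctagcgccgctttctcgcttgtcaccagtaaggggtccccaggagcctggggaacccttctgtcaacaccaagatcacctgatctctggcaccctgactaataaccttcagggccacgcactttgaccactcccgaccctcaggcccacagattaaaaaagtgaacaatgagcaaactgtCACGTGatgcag
Mcoln1, chr8:3500269-3500518, plus strand: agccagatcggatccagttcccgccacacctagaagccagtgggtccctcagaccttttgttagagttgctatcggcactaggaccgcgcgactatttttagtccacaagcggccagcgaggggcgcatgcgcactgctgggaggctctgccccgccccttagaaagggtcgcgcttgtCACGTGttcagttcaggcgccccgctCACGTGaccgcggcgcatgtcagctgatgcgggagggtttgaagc

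The motif begins 140 bases before the start of Gaa and 12 before that of Ctsa, and Mcoln1 holds it at 71 and at 45. The promoter table held 30 of the 40 lysosomal genes, and 11 of those 30 had the letters in any of their promoters. So had 9.66% of the 11909 genes with a value and a promoter. Counted by promoter and not by gene, the share was 6.02% of all 32851. Since only 75% of the list has a promoter, the comparison of these shares is void. The values of the 11 ran from -1.10 (Ctsf) to 1.04 (Gaa).

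Genes of autophagy, which delivers cytoplasm to the lysosome, were called in both directions. Of 27 genes in a list drawn up in the same way, Sqstm1 was called higher while Gabarapl2 and Calcoco2, an ATG8-type protein gene and a cargo receptor gene, were called lower, at -1.41 and -1.14 in the authors' deposited table. The median was 0.27 and 22 members lay above 0. Gabarapl1, a relative of Gabarapl2, stood at 1.20 and Fnip2, which acts with folliculin upstream of TFE3, at 1.05, neither called. The factors themselves stood at 0.53 for Tfe3, 0.21 for Mitf and 0.18 for Tfeb, all uncalled and named after their values were seen.

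The genes listed as responding to scarce amino acids through the factor ATF4 lay mostly above 0. Of 16, 15 lay above 0, and the median was 0.62. The secreted factor gene Gdf15 was called at 1.60 in the authors' deposited table. Ddit3, the CHOP factor gene, Slc7a5, an amino acid transporter gene, and Trib3 stood at 1.19, 1.10 and 0.87 with no call, and Chac1 was the member below 0, at -0.74. Solute carriers of all families, taken by symbol, had 7 calls among 289 (2.42%, beside 0.592% of all genes) and a median of 0.04. The 5 higher were Slc26a11 at 1.63, Slco4a1 at 1.60, Slc43a2 at 1.52, the glucose transporter gene Slc2a4 at 1.42 and Slc16a9 at 1.35. The lower pair was the amino acid transporter gene Slc38a2 at -1.04 and the mitochondrial ornithine carrier gene Slc25a15 at -1.12. Slc38a2, called in the direction opposite to Gdf15, was not among the 16 genes of the amino acid list. These carriers were picked after the called genes were seen.

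Other stress and housekeeping lists gave smaller or mixed values, and their calls stand beside 0.592% of all genes. Heat shock genes had a median of -0.33 over 13 members, and Hspa8 was the 1 call. Without a call, Hspa5 and Dnaja1 stood at -0.97 and -0.91 in the authors' deposited table. NRF2 and glutathione genes had 1 call among 15, Nqo1, a quinone reductase gene, higher at 1.06, and a median of 0.13. Of 20 glycolysis and hypoxia genes 0 were called and the median was -0.20, with Bnip3 at -1.49 and Ldha at -1.11. Targets of p53 had 0 among 18 and 0.23, and cholesterol synthesis genes 0 among 18 and -0.17. Ribosomal protein genes had 0 among 32 and a median of 0.13, with a mean of 0.00. Replication-dependent histone genes had 18 of 21 members above 0, a median of 0.35 and 0 calls. Several of them, among them Hist1h2ae at 0.90, have near-identical copies.

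Of the lists of other cell types, the mesoderm and primitive streak list had 1 call among 13, Gata2, with a median of 0.03, and the endoderm list had 1 among 17, Sparc, where 0.592% of all genes were called. In the other lists 0 of 12 neural, 0 of 12 trophoblast and 0 of 8 feeder fibroblast genes were called, with medians of -0.24, 0.07 and -0.22 in the authors' deposited table. Other called list members were Rarg, 1 of 13 retinoic acid genes (median -0.07), S100a6, 1 of 15 S100 proteins and annexins (0.09), Vim, 1 of 19 cytoskeletal genes (-0.08), and Sdc3, 1 of 25 collagens, laminins and adhesion genes (0.18). Ccnd1 was also the 1 call among 16 cyclins and CDK inhibitors (-0.02). The Notch pathway (11 genes, median 0.11), germline and meiosis genes (27, -0.00), imprinted genes (25, -0.02), and MHC class I and interferon response genes (17, 0.22) had 0 calls. A list of genes known to differ between inbred mouse strains in copy number or function, 16 with a value, had 0 calls and a median of 0.09. Genes of the mitochondrial genome were not analysed here. In all, 8 of the 34 lists drawn up with the design and having a value had a median at least 0.3 from 0, 2 of them above and 6 below.

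**Figure D2:**
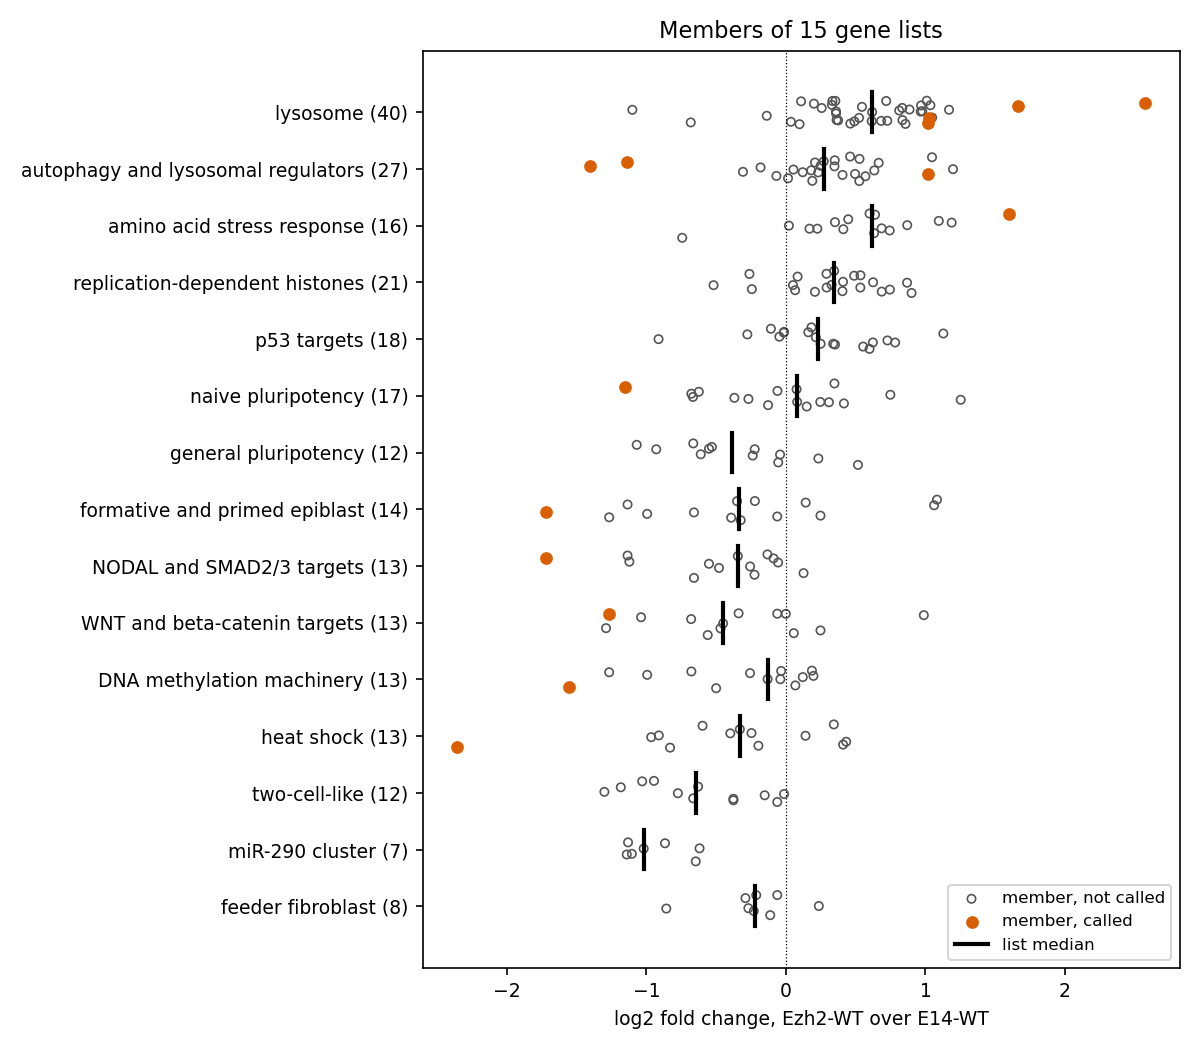
Log2 fold changes (horizontal axis, Ezh2-WT over E14-WT) of the members of 15 gene lists, 1 list per row with its number of members in brackets. Orange points are called members, open points uncalled ones, and black bars the list medians, which run from 0.62 for the lysosome to -1.02 for the miR-290 cluster.

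Genes of the 2-cell embryo that rare stem cells switch on were read mainly in E14-WT. The authors' deposited table gave 12 of them a value, of which 9 had no reads in Ezh2-WT, 3 had reads in both lines and 0 were read in Ezh2-WT alone. Over all 18595 genes, 1170 were read in Ezh2-WT alone and 1424 in E14-WT alone. The 12 lay below 0, with a median of -0.65 and 0 calls. Tcstv1 stood at -1.30, Gm8300 at -1.18 and the telomere-associated gene Zscan4f at -1.03. These 3 have near-identical copies. Those of Zscan4f include Zscan4c and Zscan4d, which are also in the list, so its members are not all separate observations. Of the 12, only 4 had a value shared with no other gene. Over the 3 genes read in both lines the median was -0.15.

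The miR-290 cluster, the main microRNA cluster of mouse embryonic stem cells, stood below 0 in all 7 of its hairpin genes with a value. Its microRNAs are known to speed the cell cycle of these cells. In the authors' deposited table Mir293, Mir290a and Mir295 stood at -1.14, -1.13 and -1.10, Mir292 at -1.02, Mir294 at -0.87, Mir291b at -0.65 and Mir291a at -0.62, and 0 were called. RNA under 200 nt had been removed, so these values do not measure the mature microRNAs. The 7 hairpins lie close together, between 3218626 and 3220841 on chromosome 7. They may be pieces of 1 precursor, so they are not 7 separate observations. Mature sequences of 3p arms are shown to compare the seeds within the cluster, without that of Mir292, which was not at hand. They are from RefSeq, GRCm38.p6, all on the plus strand of chromosome 7, 5′ to 3′, and capitals mark the seed, bases 2 to 8.
miR-291a-3p: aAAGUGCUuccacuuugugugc
miR-294-3p: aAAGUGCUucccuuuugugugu
miR-295-3p: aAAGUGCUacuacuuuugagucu
miR-291b-3p: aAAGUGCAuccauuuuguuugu
miR-290a-3p: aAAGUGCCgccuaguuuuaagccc
miR-293-3p: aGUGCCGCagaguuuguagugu

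The arms of miR-291a, miR-294 and miR-295 share the seed AAGUGCU. Those of miR-291b and miR-290a differ from it in the last base of the seed, and that of miR-293 has another. The 7 hairpin genes lay in the longest of the runs of neighbouring genes on 1 side of the median, which held 9 genes of chromosome 7. Its length rests mostly on these hairpins, which may share 1 precursor.

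Such runs, of at least 5 consecutive genes with a value of their own and each at least 0.3 from the median over all genes, numbered 37 in the authors' deposited table, 24 higher and 13 lower in Ezh2-WT. They held 203 of 12683 genes. Called genes were 6 of the 203 (2.96%), beside 109 of the 12683 (0.859%), and a run admits only genes at some distance from the median. The 6 were Gpnmb, Gdf15, Abcd4 at 1.41, Sec14l1 at 1.21, Sqstm1 and the antisense gene Gm16344 at -2.19. On chromosome 12 a run of 6 genes of small nucleolar and other non-coding RNA (109640341 to 109681593) stood between 0.41 and 0.90. Whether these 6 are read from a shared transcript was not tested, so they may not be separate observations. Meg3, a maternally expressed non-coding RNA of the same imprinted region, stood at 0.84 with no call. A run of 5 histone genes on chromosome 13 (23553262 to 23574196) stood between 0.41 and 0.90. On chromosome 17, Pou5f1 and its 4 neighbours (35506018 to 35667592) stood between 0.42 and 0.91. Sqstm1 overlaps Mrnip, a member of the same run at 0.90, so their reads may be mixed.

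Chromosomes were set side by side next. Over all genes, chromosome 6 had the highest median, 0.07, and chromosome 18 the lowest, -0.06, in the authors' deposited table. Among protein-coding genes with a value shared with no other gene, the median was 0.12 over 529 genes of chromosome 6, -0.16 over 268 genes of chromosome 18, and between -0.09 and 0.05 for each of the other 18 chromosomes. Of these genes 60.7% lay above 0 on chromosome 6 and 36.9% on chromosome 18, beside 47.9% on all chromosomes. Chromosome 6 held 6 genes called higher (Gata2, Gpnmb, Eno2, Bhlhe41, Klf15 and Bhlhe40) and 6 called lower (Nod1, A2m, Reep1, Mat2a, Rpia and Nanog), both among 892 genes with a value. Chromosome 11, with 1583 genes, held 12 called higher and 1 called lower, and chromosomes 19 and X, with 574 and 758 genes, held 0, where 0.36% of all genes were called higher and 0.231% lower.

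The values on chromosome 6 were not even along its length. In windows of 10 Mb with at least 20 such genes, 8 of its 11 medians lay above 0, the highest of them 0.31 between 120 and 130 Mb, where the highest median on any other chromosome was 0.22. Windows from 50 to 60 Mb and from 70 to 80 Mb stood at -0.13 and -0.12. In Ezh2-KO over Ezh2-WT the same genes of chromosome 6 had a median of -0.10, beside -0.03 on all chromosomes. In Suz12-KO over E14-WT the 2 medians were -0.05 and -0.03.

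**Figure D3:**
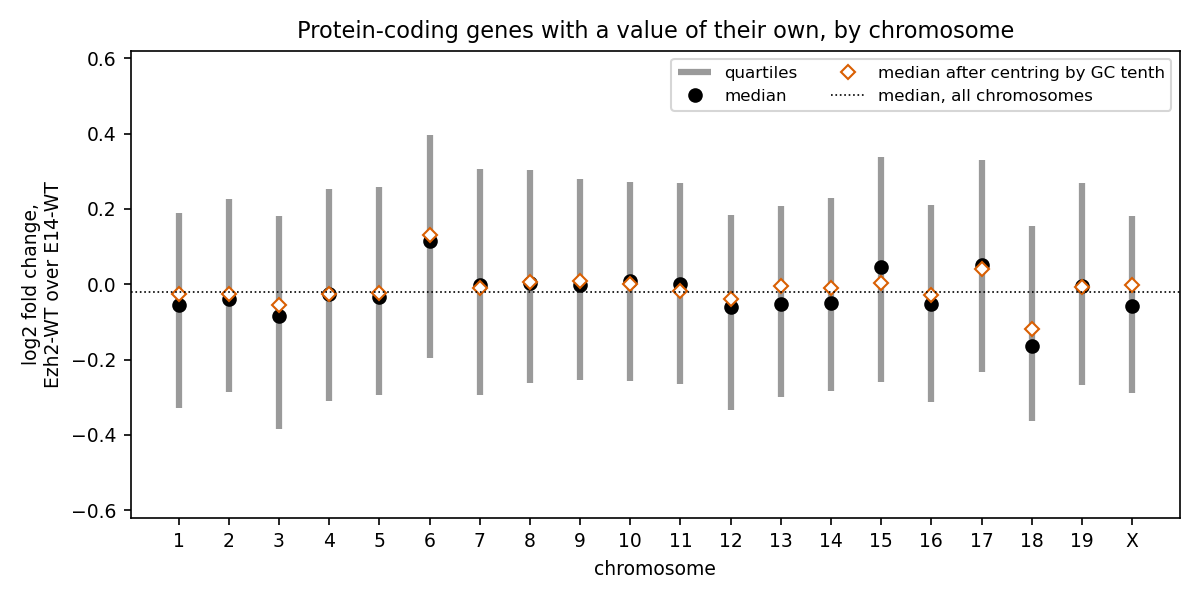
Log2 fold changes (vertical axis, Ezh2-WT over E14-WT) of protein-coding genes with a value of their own on each chromosome. Black points are medians and grey bars the quartiles over genes. Open diamonds are the medians after subtracting the median of all genes with a value and like GC content. The dotted line is the median of all chromosomes, -0.02. Chromosome 6 stands at 0.12 and chromosome 18 at -0.16.

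Fold changes also followed the GC content of the transcripts. When genes were divided into 10 groups of equal size by GC, the median of protein-coding genes with a value of their own was -0.12, -0.14, -0.13, -0.11, -0.10, -0.00, 0.07, 0.12, 0.13 and 0.16 in the authors' deposited table, in order of GC content. Genes called higher had a median GC content of 53.7%, those called lower 48.5% and all genes 49.9%. The 4 groups with the highest GC held 11, 12, 12 and 11 of the genes called higher and 2, 3, 3 and 2 of those called lower. Over all genes with a value, these medians spread less, with -0.06 in the lowest GC group and 0.09 in the highest. Once the all-gene median of each gene's own GC group was subtracted, chromosome 6 stood at 0.13 and chromosome 18 at -0.12. The lysosomal and amino acid stress lists stood at 0.61 and 0.53. The protein-coding medians had the wider spread, so part of their trend with GC remained in these chromosome values. GC content is a property that library preparation and sequencing can favour or disfavour, and whether it did so between these libraries was not tested.

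**Figure D4:**
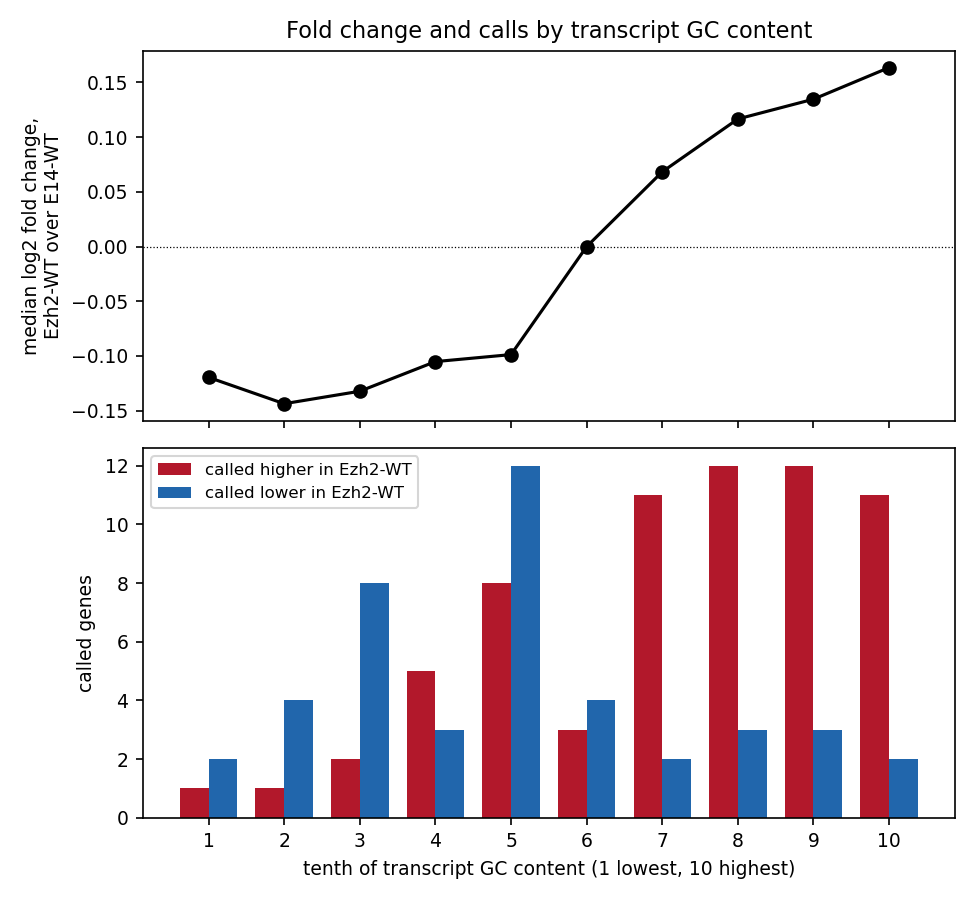
Upper panel, median log2 fold change (Ezh2-WT over E14-WT) of protein-coding genes with a value of their own in 10 groups of rising transcript GC content, from -0.12 in the lowest to 0.16 in the highest. Lower panel, number of genes called higher (red) and lower (blue) in Ezh2-WT in the same groups, with 11 higher and 2 lower in the highest.

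Biotype, length and overlap of the called genes were also set beside those of all genes. Protein-coding genes made up 59 of the 67 called higher (88.1%) and 36 of the 43 called lower (83.7%), beside 77.6% of all genes with a value. Median transcript lengths were 2764 nt for the genes called higher, 3096 nt for those called lower and 2827 nt for all genes. Median gene lengths were 18343, 20491 and 16561 bp. Another annotated gene overlapped 40.9% of the genes called higher, 39.5% of those called lower and 54.4% of all, and an antisense gene 31.8%, 27.9% and 41.6%. Promoters were at hand for 68.7%, 65.1% and 64% of these groups, so their CpG content was not compared.

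The called genes can be set beside the 3 knockout comparisons, of which Ezh2-KO over Ezh2-WT shares the Ezh2-WT libraries, and the other 2 share those of E14-WT. An unusual value in a shared library moves both comparisons at once, so that no overlap or correlation is given. The 67 genes called higher in Ezh2-WT had medians of -0.59 in Ezh2-KO over Ezh2-WT, -0.04 in Suz12-KO over E14-WT and 0.85 in Ring1A+B-DKO over E14-WT. The 43 called lower had 0.25, -0.42 and -0.28, and all genes -0.03, -0.04 and 0.01. These genes were chosen by values that rest on the shared libraries, so the medians are a description only. Of all genes with a value in each of these columns, the authors' deposited table called 0.177%, 0.2% and 3%.

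Single genes showed different patterns over the 4 columns. Nod1 stood at -3.15 in Ezh2-WT over E14-WT, -0.60 in Ezh2-KO over Ezh2-WT, -0.55 in Suz12-KO over E14-WT and -1.91 in Ring1A+B-DKO over E14-WT, where it was called. Gpnmb stood at 2.58, -0.65, -0.66 and 2.98 in the same order in the authors' deposited table, called in the first and the last. Neither gene was called in Ezh2-KO or in Suz12-KO. Nkx6-2, at 2.07, 0.29, 0.89 and 0.57, was called in the first alone. Hspa8, the chaperone gene, had -2.35, 1.09, 0.31 and -0.60, and Lefty1 -1.72, 0.31, -0.53 and -1.77, called in the first and the last. Of the 15 largest increases, Gata2 (-2.68), Sdc3 (-2.10), Bhlhe41 (-1.58), Ripply3 (-1.58) and Eno2 (-1.51) were also called in Ezh2-KO over Ezh2-WT. Of the 15 largest decreases, S100a6 was called there, at 1.86. Their signs are opposite in these columns, which share the Ezh2-WT libraries, so this is a description only.

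The lysosomal list had a median of -0.36 in Ezh2-KO over Ezh2-WT, with 32 of 40 members below 0, and -0.22 in Suz12-KO over E14-WT, with 33 below 0. In Ring1A+B-DKO over E14-WT its median was 0.46, with 32 above 0. The miR-290 cluster had 1.07, -0.34 and 0.28 in these columns of the authors' deposited table.

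**Figure D5:**
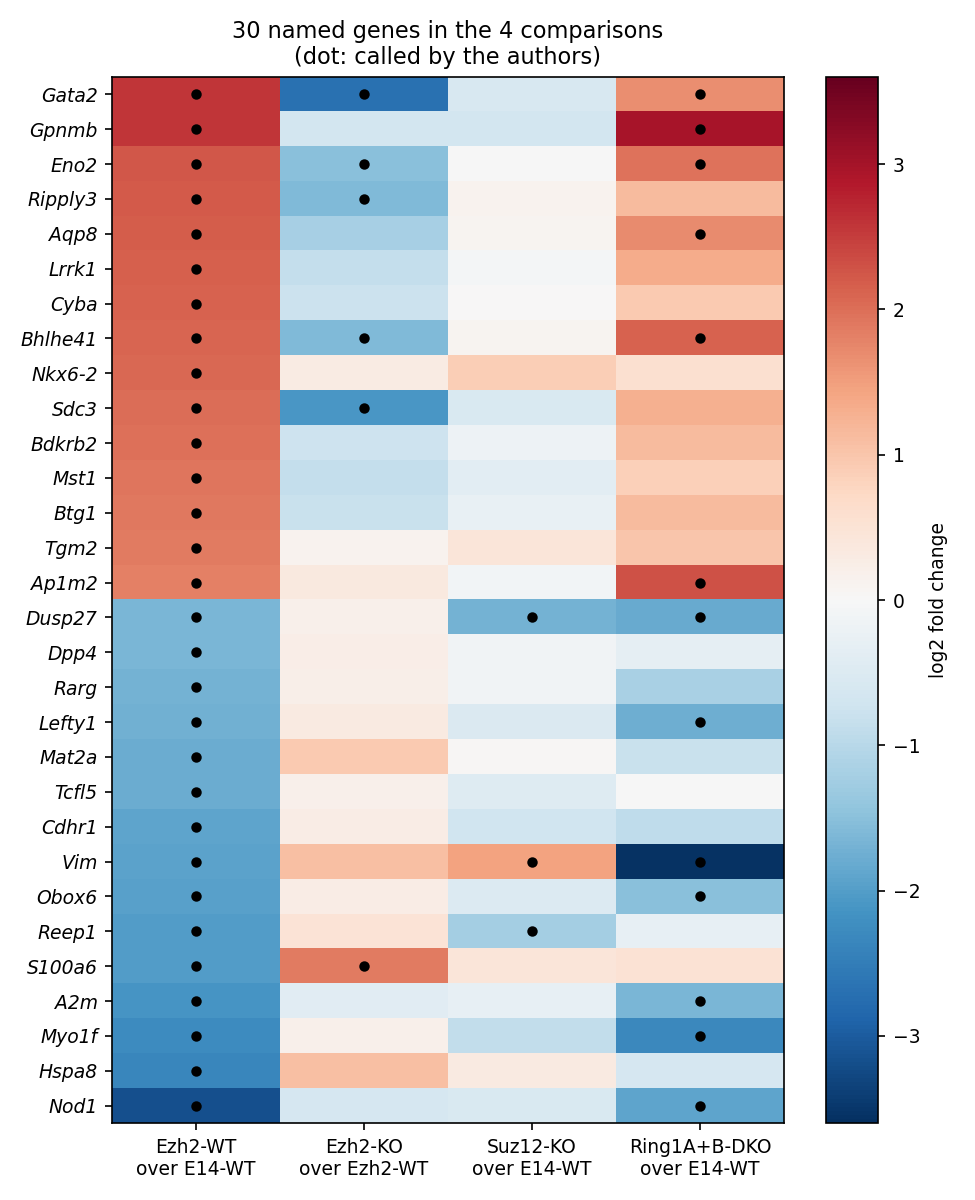
Log2 fold changes (colour) of the 30 genes with the largest called differences between the wild-type lines, 1 gene per row, in the 4 comparisons of the authors' table, with black dots where the authors called the gene. The first column runs from 2.58 for Gata2 to -3.15 for Nod1, and the first column shares the Ezh2-WT libraries with that of Ezh2-KO and the E14-WT libraries with the other 2.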

How the data were processed

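The authors deposited 1 table with, for 4 comparisons, log2 fold changes and the authors' calls as true or false. The submitters' processing notes name TopHat, featureCounts, DESeq2 and GRCm38 (mm10). Versions, settings and depth per sample are not stated there. Identifiers are from Ensembl release 72, per the file headers. Since no counts were at hand, the tests planned on samples were not run and the authors' call was used. A missing value was read as no reads in either group. Of the values, 31.1% are shared by several genes, and all 110 called genes have a value of their own. Transcript GC content and length are those of the GENCODE release 21 transcripts. Copies were sought with blastn 2.17.0 (95% identity, 100 nt or more, and 50% or more of the shorter transcript). Genes that overlap the one searched were not left out. Scripts used Python 3.11.15, numpy 2.4.6, pandas 2.3.3 and matplotlib 3.10.9, and were tested on simulated data.

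Members and gene lists were chosen with earlier results of these data known. Named genes are Hprt and Ezh2, the 15 largest called increases and decreases without Gm or Rik models, small RNA and pseudogenes, called members of the lists and up to 3 further members per list, and called genes in runs. Others were named after their values were seen. The lysosome, autophagy, LIF-STAT3, solute carrier and miR-290 lists were drawn up after the called genes were seen. Alternatives were other thresholds, centring, means, subsets of genes and, added after seeing the data, centring within groups of like GC content. Some single genes are not reported here.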

Additional observations from a re-analysis of the deposited data

How the results depend on the processing

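Counts of calls moved with the threshold: at a log2 fold change of 1 or more in size with no call required, 239 genes were higher and 186 lower in Ezh2-WT, and among called genes 38 and 26 had a size of at least 1.5. Runs of neighbouring genes numbered 115 at a distance of 0.2, 3 at 0.5 and 110 with at least 4 genes, against 37. The sign of the column held for the 526 protein-coding genes with reads in Ezh2-WT alone. Over the other alternatives the counts of calls, the number of lists at least 0.3 from 0 (8 or 9) and the median of chromosome 6 (0.07 to 0.12) stayed within 1.5 times or 0.1. For 39 lists and the 19 other chromosomes, 272 of 290 alternative medians moved by at most 0.1. The sign differed in 19, all with medians of 0.08 or less in size on both sides. The 2-cell list moved most, to -0.15 for genes read in both lines and -0.92 for genes with a value of their own. No paired analysis was possible because the table holds no values per sample. Leaving out replicates, edgeR and DESeq2 were not run for the same reason and depth is unknown.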
